A study of Mus musculus with 8 samples.

Results

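The genes that encode the subunits of the proteasome were followed in mouse pancreas after induced deletion of Sel1L, a membrane protein that works with the ubiquitin ligase Hrd1 to remove misfolded proteins from the endoplasmic reticulum (ER), a route called ERAD. The list holds 32 subunit genes, grouped by the place of each protein in the particle. A gene was measured where a feature of the array carried its symbol and no other, and where it had several such features, the brightest on average was taken. On that rule 31 of the 32 genes were measured, among 18820 genes in all. The feature of Psma4 also carried the symbol of another gene, so Psma4 was left out.

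Whole-transcript arrays were hybridised with RNA of 4 Sel1L knockout and 4 wild type pancreas samples. Knockout mice carried the floxed Sel1l gene on both alleles (exon 6 between loxP sites) and an actin-promoter transgene for a Cre–estrogen receptor fusion. The wild type mice were littermates with the same floxed alleles but without Cre. Mice of both groups, of the C57BL/6J strain by label and derived from C57BL/6N embryonic stem cells, were aged 8 to 20 weeks and received tamoxifen at 5 mg/ml, in a volume of 5 μl for each g of mouse, on 3 days. The time from the last injection to collection is not given in the sources used here. Because the wild type mice lacked Cre, loss of Sel1L and Cre activity cannot be told apart, and the actin promoter is not limited to pancreas. The labels number the samples but do not say that each is a separate animal, so p-values reflect sample-to-sample spread that may be technical.

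The proteasome is the main protease of the cytosol and nucleus, and it degrades proteins that carry ubiquitin chains. Its core particle is a barrel of alpha and beta rings whose catalytic beta subunits face the inside. The regulatory particle on its end consists of a base, with a ring of ATPases that unfold the substrate, and a lid that removes ubiquitin. ERAD substrates pulled out of the ER, including those that Sel1L and Hrd1 ubiquitinate, end in this particle. The acinar cells of the pancreas make very large amounts of secreted protein in the ER. In mammalian cells the transcription factor NRF1, encoded by Nfe2l1, drives subunit genes together when proteasome activity is low.

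Sel1l, the targeted gene, was lower in the knockout arrays, at 11.62 ± 0.114 against 12.38 ± 0.0105 in the wild type arrays (log2 signal, SD, n = 4 each; difference -0.76, SE 0.0788, limma adjusted p = 0.000196). An exact permutation test, two-sided, gave p = 0.0286, its lower limit for groups of 4. Which exons the probes of this feature read is not given in the sources used here, so the remaining signal does not give the share of cells that kept exon 6. The digestive enzyme genes among the acinar markers stood near the top of the arrays' range (Cela1 at 13.05 in the knockout and 13.61 in the wild type arrays), while the transcription factor gene Ptf1a was at 8.88 in the knockout and 9.02 in the wild type arrays. The mean of all 8 measured acinar markers ran from 12.6 to 12.69 in the knockout arrays and from 12.87 to 13.02 in the wild type arrays. Wild type replicate 2 lay apart from the other arrays on the second principal component (-35.7), with a macrophage marker mean of 6.41, where the wild type replicates 1, 3 and 4 had 8.06 to 8.71.

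More proteasome subunit genes were higher than lower in the knockout arrays, and the differences were small. Of the 31 measured genes, 10 were called higher (32.3%) and 1 was called lower (3.23%), where a call is an adjusted p under 0.05 in limma, Benjamini-Hochberg adjusted over all genes. The calls higher were Psma1, Psma3, Psma6, Psmb1, Psmb2, Psmb4, Psmb5, Psmc2, Psmc6 and Psmd3, and the call lower was Psmd6. Over all 18820 genes, 16.1% were called higher and 12.6% lower (28.7% in either direction). The subunit genes are strongly expressed, and all 31 lay above the median gene signal. Among the 7228 genes with a mean signal between the lowest and the highest subunit gene, a background chosen after seeing the data, 28.6% were called higher and 10.7% lower (39.3% in either direction). The share of subunit genes called higher was therefore close to that of genes with like signal. The difference was positive for 28 of the 31 genes (90.3%), against 66.7% of the genes of like signal and 45.6% of all genes. Its median was 0.26 on the log2 scale, against 0.13 for the genes of like signal and -0.04 for all genes. The largest change was 1.52-fold, in Psmb4.

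How many subunit genes passed the threshold depended on the scaling of the arrays. After quantile normalization or cyclic loess 4 were called higher in each, with 21 and 23 of 31 differences positive, and after centring each array on its median 6 were called higher, with 25 positive. In those settings 16.2%, 16.2% and 21.3% of the genes of like signal were called higher, against 12.9%, 12.9% and 19.4% of the subunit genes. Without Sel1L knockout replicate 4, 6 were called higher, and without wild type replicate 2, 9 were. Psmd6 was called lower in all 17 other settings run. Psma1, Psmb2, Psmb4 and Psmc6 were called higher in all 17, which included the scalings, the variance models, the filter and the leaving out of each array. The calls of Psma3, Psmb1, Psmb5 and Psmd3 were lost under all 3 other scalings, and those of Psma6 and Psmc2 under quantile normalization and cyclic loess. The small differences of Psma5, Psmb3, Psmc3, Psmd4, Psmd7, Psmd8 and Psmd12, none called here, changed sign in at least 1 setting.

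**Figure D1:**
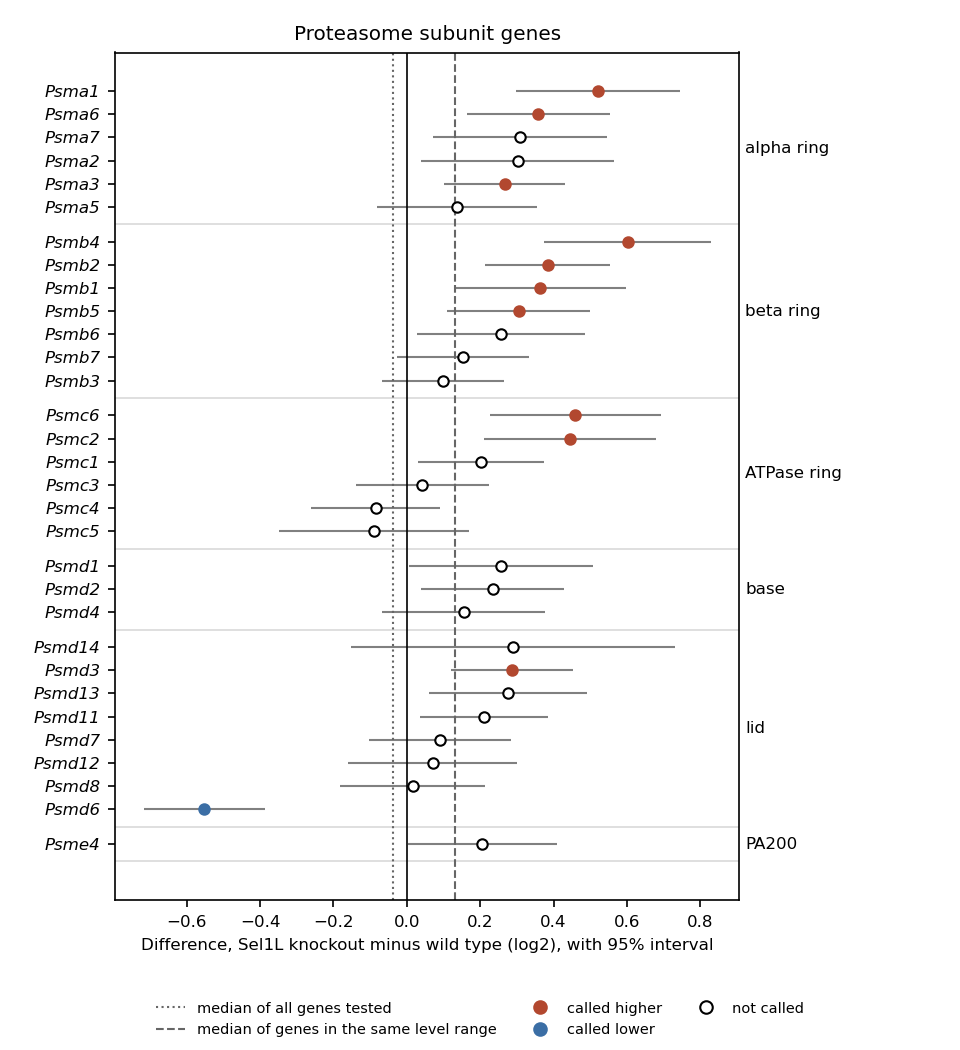
Difference between Sel1L knockout and wild type pancreas (log2 scale, points, with 95% intervals) for 31 proteasome subunit genes by place in the particle, filled where called. Most points lie right of 0, the beta ring reaches 0.60 in Psmb4, and Psmd6 alone is called lower, at -0.55; the dotted and dashed lines mark the medians of all genes (-0.04) and of genes with like signal (0.13).

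The stretches of 250 bases before the transcription start are shown for the called genes that held under all settings and have an entry in the promoter table, and for Psmb5, the called catalytic subunit gene (called in 9 of 17 other settings), because promoter elements shared by subunit genes are where NRF1 and other factors act. Sequences are RefSeq's, of build GRCm38.p6, written 5′ to 3′ on the strand of the gene. Capitals mark the letters of 3 motifs, searched on both strands. TGANNNNGC, where N is any base, is a loose form of the core of the antioxidant response element. NRF1 and NRF2 bind that element with small Maf proteins. CCAAT is the box bound by NF-Y, and CGGAAG is a core bound by ETS factors. Psma1 lies at chr7:114276117-114276366 (minus strand), Psmb4 at chr3:94886959-94887208 (minus strand), Psmb5 at chr14:54617996-54618245 (minus strand), Psmc6 at chr14:45329574-45329823 (plus strand) and Psmd6 at chr14:14120946-14121195 (minus strand).
Psma1: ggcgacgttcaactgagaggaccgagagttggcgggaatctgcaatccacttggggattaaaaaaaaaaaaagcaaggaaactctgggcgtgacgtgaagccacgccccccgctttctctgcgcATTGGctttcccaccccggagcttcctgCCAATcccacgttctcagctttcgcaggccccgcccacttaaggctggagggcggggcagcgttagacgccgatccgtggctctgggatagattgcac
Psmb4: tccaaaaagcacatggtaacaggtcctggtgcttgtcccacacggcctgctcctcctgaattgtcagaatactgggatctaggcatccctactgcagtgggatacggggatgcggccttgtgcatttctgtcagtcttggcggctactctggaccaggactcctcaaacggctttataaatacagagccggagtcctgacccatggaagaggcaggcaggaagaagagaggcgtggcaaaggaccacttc
Psmb5: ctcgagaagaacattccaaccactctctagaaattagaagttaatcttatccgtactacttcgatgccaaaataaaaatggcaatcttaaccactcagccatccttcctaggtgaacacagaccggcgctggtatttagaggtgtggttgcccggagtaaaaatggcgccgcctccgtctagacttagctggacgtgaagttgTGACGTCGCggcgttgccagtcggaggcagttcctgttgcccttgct
Psmc6: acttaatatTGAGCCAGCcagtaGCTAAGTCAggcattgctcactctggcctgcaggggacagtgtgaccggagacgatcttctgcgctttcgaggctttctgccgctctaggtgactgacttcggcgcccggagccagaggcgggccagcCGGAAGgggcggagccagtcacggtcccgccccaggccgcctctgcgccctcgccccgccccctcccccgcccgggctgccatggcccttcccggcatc
Psmd6: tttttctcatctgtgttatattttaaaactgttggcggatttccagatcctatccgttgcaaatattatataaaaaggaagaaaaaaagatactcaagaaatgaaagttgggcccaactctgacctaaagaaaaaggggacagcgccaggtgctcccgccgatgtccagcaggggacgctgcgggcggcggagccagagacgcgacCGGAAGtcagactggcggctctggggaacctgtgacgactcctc
Psma1 held CCAAT at -126 (reverse strand) and -98, where the position is that of the first base before the start. Psmb5 held the antioxidant response element core at -47. Psmc6 held it at -241 and, on the reverse strand, at -227, and CGGAAG at -99. Psmd6 held CGGAAG at -44, and the Psmb4 stretch held none of the 3 motifs.

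Promoter windows were found for 26 of the 32 listed genes. The ETS core was the motif in which they stood furthest from other genes: 16 of 26 held CGGAAG (61.5%), against 15.3% of 27025 genes with a window and 31.0% of 5892 genes of like signal. The antioxidant response element core was in 9 of 26 (34.6%), against 38.7% of all genes and 41.8% of those of like signal, and CCAAT was in 10 of 26 (38.5%), against 37.5% and 40.1%. Of the 7 genes called higher that have a window, 4 held the antioxidant response element core, 4 CCAAT and 3 CGGAAG. Of the 17 measured genes that were not called and have a window, 4 held the antioxidant response element core, 6 CCAAT and 11 CGGAAG. Matches are letters in a window and are not shown to be bound, the windows end at the start, and member windows were richer in G and C (median 56.2%, against 52.4% for all windows).

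In the alpha ring, which gates the entrance of the core, 3 of 6 measured genes were called higher and the median difference was 0.31. The share called higher was 16.1% over all genes and 28.6% among genes of like signal, whose median difference was 0.13. Psma1 had log2 signals of 8.54, 8.55, 8.58 and 8.86 in knockout replicates 1 to 4, against 8.05, 8.00, 8.27 and 8.13 in wild type replicates 1 to 4. The groups did not overlap, and knockout replicate 4 stood above the rest of its group. The difference was 0.52 (SE 0.1, a 1.44-fold rise, limma adjusted p = 0.00479). Psma6 had 8.88, 9.0, 8.97 and 9.15 in the knockout arrays and 8.71, 8.57, 8.74 and 8.55 in the wild type arrays, again without overlap (difference 0.36, SE 0.0871, adjusted p = 0.0142). Psma3 had 9.10, 8.97, 9.04 and 9.11 in the knockout arrays and 8.88, 8.75, 8.75 and 8.77 in the wild type arrays. Its groups did not overlap either, by a margin of less than 0.1, and the difference was 0.27 (SE 0.074, adjusted p = 0.0244).

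The other 3 alpha ring genes missed the threshold with positive differences. Psma7 was at 0.31 (SE 0.106, adjusted p = 0.0543, groups not overlapping), Psma2 at 0.30 (adjusted p = 0.0795) and Psma5 at 0.14 (adjusted p = 0.305). A second feature of Psma5, of lower signal, differed by more, 0.49 (adjusted p = 0.0218 among all features), so the 2 features of this gene give different calls. Second features changed the call of Psmb1 as well (0.20, adjusted p = 0.131, not called), and of Psmc1 (0.23, adjusted p = 0.0409) and Psmd2 (0.25, adjusted p = 0.0403), which were called on them. Psma3 has 3 features, which agreed in direction and size (0.27, 0.29 and 0.27). Proteasome subunit genes have processed copies elsewhere in the mouse genome, and which copies a feature reads was not tested.

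The beta ring holds the catalytic subunits, and 4 of its 7 genes were called higher, with a median difference of 0.30. Over all genes 16.1% were called higher, and among genes of like signal 28.6%, with a median of 0.13. Psmb4, a structural subunit of this ring, had 9.94, 9.99, 10.07 and 10.13 in knockout replicates 1 to 4, against 9.26, 9.38, 9.68 and 9.40 in wild type replicates 1 to 4. Every knockout value lay above every wild type value, and the difference of 0.60 (SE 0.101, adjusted p = 0.00249) was the largest rise among the subunit genes. Psmb2, another structural subunit, had 9.91, 10.03, 10.00 and 10.04 in the knockout arrays and 9.51, 9.57, 9.70 and 9.65 in the wild type arrays (difference 0.38, SE 0.0764, adjusted p = 0.00579). These groups were also apart. Psmb1, also without catalytic activity, had 8.33, 8.43, 8.38 and 8.72 in the knockout arrays and 7.99, 8.20, 8.20 and 8.01 in the wild type arrays, and differed by 0.36 (SE 0.104, adjusted p = 0.0281). The highest knockout value was again that of replicate 4.

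Of the 3 catalytic genes, 1 passed the threshold, where 28.6% of genes of like signal were called higher. Psmb5, the chymotrypsin-like subunit, had 10.84, 10.86, 10.91 and 10.91 in the knockout arrays, against 10.39, 10.54, 10.70 and 10.67 in the wild type arrays. The knockout values lay within 0.1 of each other and above the more scattered wild type values (difference 0.30, SE 0.0868, adjusted p = 0.0273). Psmb6, the caspase-like subunit, differed by 0.26 (95% interval 0.029 to 0.48, adjusted p = 0.0851) and Psmb7, the trypsin-like subunit, by 0.15 (95% interval -0.027 to 0.33, adjusted p = 0.176). The 3 intervals overlap, and differences between the catalytic genes were not tested. Psmb3, a structural subunit, was at 0.10 (adjusted p = 0.334) with its groups just apart, and a second feature of it was at 0.33 (adjusted p = 0.0203 among all features).

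**Figure D2:**
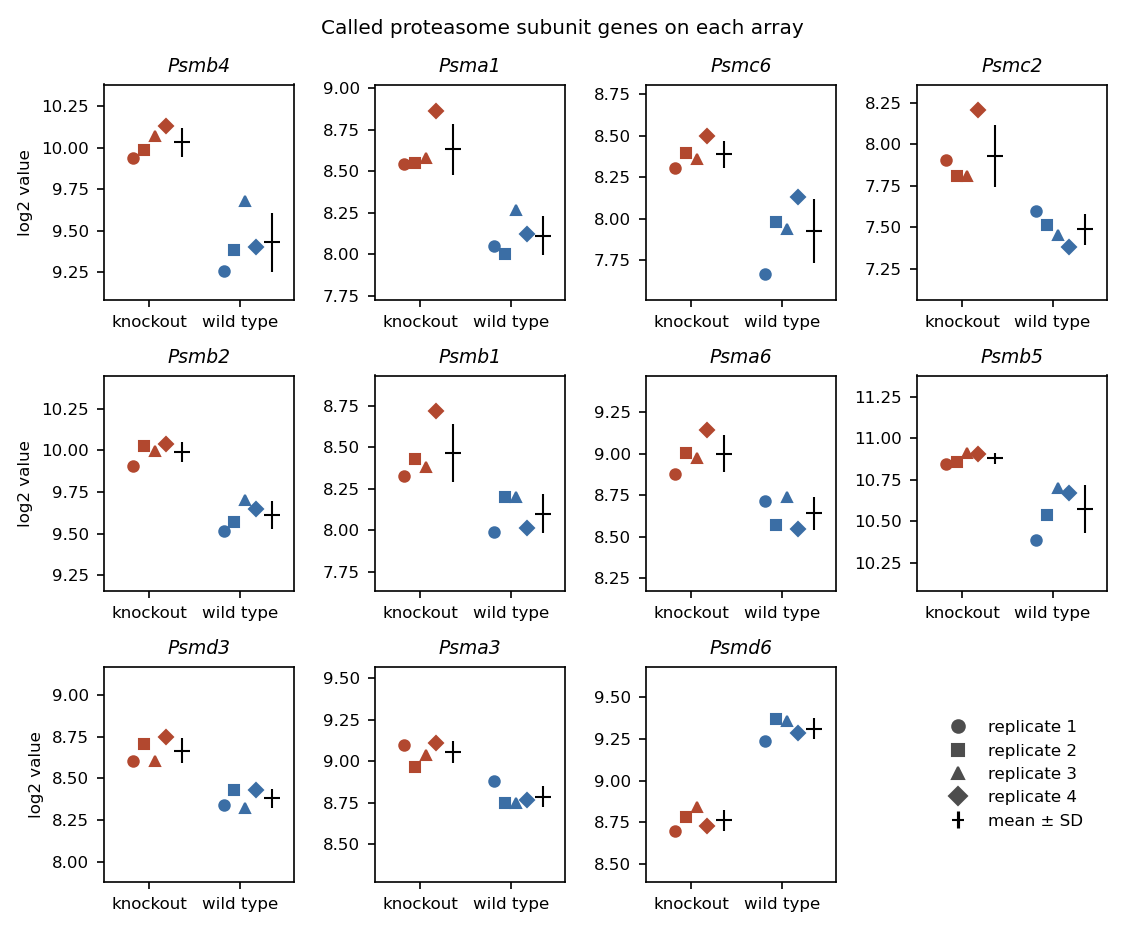
Log2 signal of the 11 called proteasome subunit genes on each Sel1L knockout (red, left) and wild type array (blue, right), with symbols for the replicate number and mean ± SD in black (n = 4 each). Each panel spans the same number of log2 units, the groups do not overlap in any of the 11, and Psmd6 is the gene with knockout values below wild type.

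In the ATPase ring, which unfolds substrates and feeds them to the core, 2 of 6 genes were called higher and the median difference was 0.12. This was close to the genes of like signal, with 28.6% called higher and a median of 0.13 (16.1% over all genes). Psmc6 had 8.31, 8.39, 8.36 and 8.49 in the knockout arrays, against 7.67, 7.98, 7.94 and 8.13 in the wild type arrays. The groups did not overlap, wild type replicate 1 was the lowest of all, and the difference was 0.46 (SE 0.104, adjusted p = 0.0104). Psmc2 had 7.91, 7.81, 7.81 and 8.20 in the knockout arrays and 7.60, 7.52, 7.46 and 7.38 in the wild type arrays, and differed by 0.44 (SE 0.104, adjusted p = 0.0121). Psmc1 was at 0.20 (adjusted p = 0.0757) and Psmc3 at 0.04 (adjusted p = 0.715). Psmc4 and Psmc5 had negative differences, -0.08 (95% interval -0.26 to 0.092) and -0.09 (95% interval -0.35 to 0.17), neither called. The upper bounds of both lay below the difference of Psmc6, though the differences between these genes were not tested.

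None of the 3 other base subunits was called, and all had positive differences. Of the genes of like signal, 39.3% were called in either direction and 66.7% had positive differences. Psmd1, a scaffold of the base, was at 0.26 (adjusted p = 0.111), Psmd2, the other scaffold, at 0.23 (adjusted p = 0.0689) and Psmd4, a receptor for ubiquitin chains, at 0.16 (adjusted p = 0.257). Knockout replicate 4 was the lowest knockout array for Psmd1 and Psmd2, the reverse of its place in most ring genes.

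The lid held 1 gene of 8 called in each direction, where 28.6% of genes of like signal were called higher and 10.7% lower. Psmd6, a structural lid subunit, had 8.70, 8.78, 8.84 and 8.73 in knockout replicates 1 to 4, against 9.24, 9.37, 9.36 and 9.28 in wild type replicates 1 to 4. The 2 groups were apart, with the knockout arrays lower and a gap wider than the range of either group. The difference was -0.55 (SE 0.0736, a 1.47-fold fall, adjusted p = 0.000752), the smallest p among the subunit genes. Psmd3, another structural lid subunit, had 8.61, 8.71, 8.60 and 8.75 in the knockout arrays and 8.34, 8.43, 8.32 and 8.43 in the wild type arrays (difference 0.29, SE 0.0743, adjusted p = 0.0186), so the 2 lid genes differed in opposite directions on the same arrays.

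Psmd14, the lid enzyme that cuts ubiquitin chains from substrates, had 8.16, 8.23, 8.43 and 8.56 in the knockout arrays and 7.48, 7.95, 8.38 and 8.41 in the wild type arrays. Its groups overlapped, wild type replicate 1 was far below the others, and the difference of 0.29 had a wide error (SE 0.197, adjusted p = 0.286). The remaining lid genes were not called. Psmd13 was at 0.28 (adjusted p = 0.0564), Psmd11 at 0.21 (adjusted p = 0.0689, groups not overlapping), Psmd7 at 0.09, Psmd12 at 0.07 and Psmd8 at 0.02. Psme4, which encodes the alternative cap PA200, was at 0.21 (adjusted p = 0.112).

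Set side by side, 7 of 13 measured core genes were called higher and 0 lower with a median difference of 0.30, and 3 of 17 regulatory particle genes were called higher and 1 lower with a median of 0.20. Among genes of like signal 28.6% were called higher and 10.7% lower. Only Psma1, Psmb2 and Psmb4 of the core and Psmc6 and Psmd6 of the regulatory particle stayed called after quantile normalization and cyclic loess. The contrast between the 2 particles was not tested. At an unadjusted p under 0.05, 20 of the 31 genes passed, against 42.5% of all genes and 51.6% of those of like signal. Groups did not overlap for 16 of 31 genes (51.6%), 15 with higher and 1 with lower knockout values, against 32.2% of all genes (17.6% with higher and 14.6% with lower knockout values) and 44.4% of those of like signal (32.3% with higher and 12.1% with lower).

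The mean log2 signal over the 31 measured subunit genes was 8.59, 8.64, 8.66 and 8.76 in knockout replicates 1 to 4 and 8.36, 8.45, 8.53 and 8.47 in wild type replicates 1 to 4, so the groups did not overlap, but the gap between the lowest knockout array (8.59) and the highest wild type array (8.53) was small beside the range within each group. Knockout replicate 4 was the highest knockout array for 23 of 31 genes and the lowest for 3, and the same count over all genes was not made. Its Sel1l signal was the lowest, 11.45 against 11.66 to 11.7 in the other knockout arrays. This is 1 array, and a link between its Sel1l and subunit gene signals was not tested. Wild type replicate 1 was the lowest wild type array for 15 of 31 and the highest for 4.

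**Figure D3:**
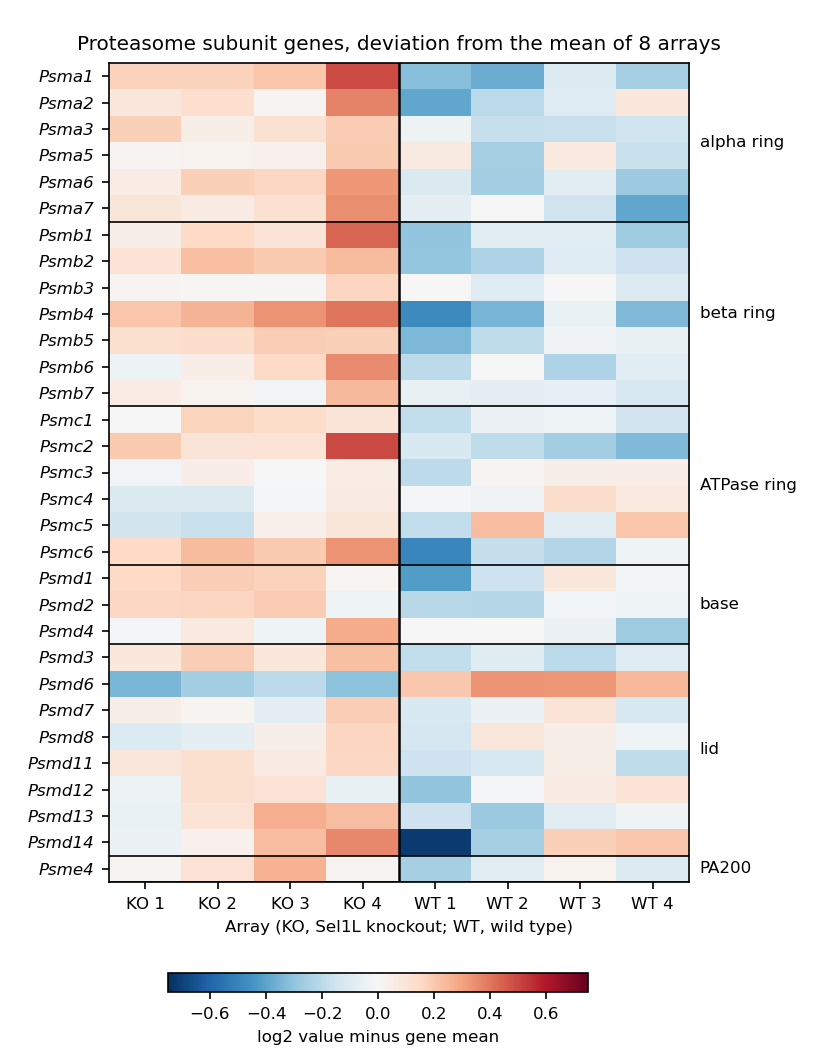
Log2 signal of each proteasome subunit gene minus its mean over the 8 arrays, with genes in rows by place in the particle and the 4 Sel1L knockout arrays left of the 4 wild type arrays. Knockout replicate 4 is the reddest column in the rings, where it is the highest knockout array for 23 of 31 genes over the whole list, and Psmd6, the gene called lower, has its low values on the left.

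Some markers of other cell types and of acinar cells were also called, against 16.1% of all genes called higher and 12.6% lower. Of 8 acinar markers 4 were called lower and 0 higher, among them the elastase gene Cela1 (-0.56) and the acinar transcription factor gene Bhlha15 (-0.76). The others were not called, with Cpa1 (-0.16), Ctrb1 (-0.13), Pnliprp1 (-0.14) and Ptf1a (-0.14) all negative. Of 5 endothelial markers 3 were called higher (Pecam1, Tek and Emcn), and their list mean ran from 7.62 to 7.90 in the knockout arrays and from 7.29 to 7.56 in the wild type arrays. Of 8 T, B and NK cell markers 2 were lower. These were Cd2 (3.94 in the knockout and 4.30 in the wild type arrays) and Cd8a (3.93 and 4.43). Both lay below the median gene signal of 5.52. Of 5 duct markers 1 was lower (Muc1, -2.39). The others were not called, with Krt19 (0.30), Krt7 (0.37) and Cftr (0.25) positive and Sox9 (-0.32) negative. Of 6 islet markers 1 was higher (Ppy, 1.33). The others were not called, with Gcg (0.31), Iapp (0.77) and Chga (0.47) positive and Ins2 (-0.13) and Sst (-0.73) negative. None of 9 macrophage, 8 stellate and fibroblast or 5 adipocyte markers was called. The macrophage mean ran from 7.68 to 8.70 in the knockout arrays and from 6.41 to 8.71 in the wild type arrays. In RNA of whole tissue, fewer cells of a type and less RNA per cell cannot be told apart, and the part of cell makeup in the subunit gene differences was not tested.

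Other genes of the proteasome pathway were taken from lists by role, of which 33 of 43 genes were measured. Of these 11 were called higher and 0 lower, with a median difference of 0.23, against 16.1% higher and 12.6% lower over all genes. Among genes in the signal range of the subunit genes, 28.6% were called higher and 10.7% lower, with a median of 0.13. Some of the listed genes, such as Psmb11 and Maff, lay below that range. Assembly chaperones, which build the particle but are not part of it, had 4 of 8 called higher and all 8 differences positive, though those of Psmd5 and Psmg3 changed sign in some settings. Psmg2, which starts assembly of the alpha ring together with Psmg1, had 7.60, 7.77, 7.77 and 7.95 in the knockout arrays and 6.57, 7.15, 7.0 and 6.84 in the wild type arrays. That difference of 0.88 (SE 0.13, a 1.85-fold rise, adjusted p = 0.00127) was larger than that of any subunit gene. Pomp, a factor needed to complete the core, had 7.55, 7.39, 7.48 and 7.70 in the knockout arrays and 6.96, 6.90, 7.02 and 7.04 in the wild type arrays (difference 0.55, SE 0.0869, adjusted p = 0.00178). Psmd9 (0.37, adjusted p = 0.0226) and Psmd10 (0.29, adjusted p = 0.0466), chaperones of the base, were called as well, and both calls were lost under each of the 3 other scalings. Psmg1 was at 0.41 and missed the threshold (adjusted p = 0.0552), Psmg4 was at 0.30 (adjusted p = 0.0501), Psmd5 at 0.12 and Psmg3 at 0.06.

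Among the genes that govern transcription of subunit genes, 4 of 6 were called higher. The share was 16.1% over all genes and 28.6% among genes in the signal range of the subunit genes. Nfe2l1, which encodes NRF1, had 9.26, 9.30, 9.41 and 9.21 in the knockout arrays and 8.72, 8.71, 8.50 and 8.70 in the wild type arrays (difference 0.64, SE 0.0835, a 1.56-fold rise, adjusted p = 0.000665). The groups did not overlap. Nfe2l2, which encodes the related factor NRF2 of the antioxidant response, had 10.02, 10.01, 10.14 and 9.96 in the knockout arrays and 9.19, 8.48, 9.0 and 9.01 in the wild type arrays (difference 1.11, SE 0.14, a 2.16-fold rise, adjusted p = 0.00056). Both genes were called in all 17 other settings. Their small Maf partner genes Maff (0.76, adjusted p = 0.0123) and Mafg (0.36, adjusted p = 0.0161) were called higher, and Mafk was not (-0.08, adjusted p = 0.447). Maff had a low signal, 5.32 in the knockout and 4.56 in the wild type arrays, below the median gene at 5.52. The signal filter left it out. The Mafg call was lost after quantile normalization and cyclic loess, where Mafk and Ngly1 were called lower. Ngly1, the glycosidase that processes the NRF1 protein, was at -0.11 (adjusted p = 0.282). NRF1 and NRF2 are controlled largely as proteins, which these arrays do not measure.

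In the remaining lists 0 to 2 genes each were called higher and 0 lower, against 16.1% higher and 12.6% lower over all genes. Among genes in the signal range of the subunit genes, 28.6% were called higher and 10.7% lower. Psmf1, which encodes a protein that binds the core and inhibits it in vitro, was at 8.35 ± 0.037 in the knockout arrays and 7.90 ± 0.0596 in the wild type arrays (SD, n = 4 each; difference 0.45, SE 0.0702, adjusted p = 0.00166). The cap genes Psme1 (0.18), Psme2 (0.25) and Psme3 (-0.04) were not called. Of 9 genes that handle ubiquitin at the proteasome, 2 were called higher, namely Zfand2a (0.34, adjusted p = 0.0148) and Zfand5 (0.33, adjusted p = 0.0166), whose products bind the regulatory particle, and both calls were lost after quantile normalization and cyclic loess. The other 7 in that list, among them the deubiquitinase gene Uchl5 (0.16) and the shuttle factor genes Rad23b (-0.12) and Ubqln1 (0.11), missed the threshold. The immunoproteasome genes Psmb8 (0.12), Psmb9 (0.30, adjusted p = 0.139) and Psmb10 (-0.04), whose products replace the catalytic subunits in cells exposed to interferon, and the thymus gene Psmb11 (-0.11) were not called. Neither were the lid gene Sem1 (-0.14) and the ubiquitin-activating enzyme gene Uba6 (0.29, adjusted p = 0.138).

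**Figure D4:**
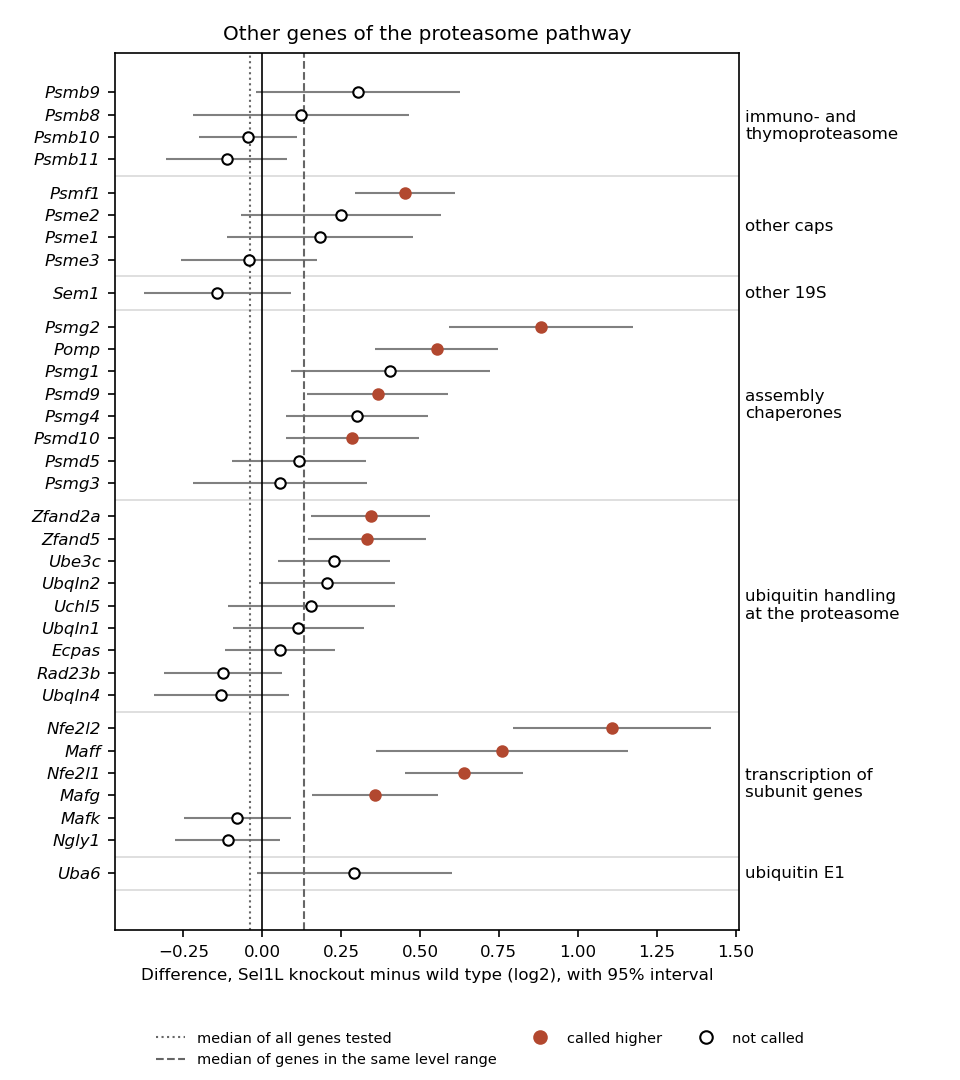
Difference between Sel1L knockout and wild type pancreas (log2 scale, points, with 95% intervals) for 33 further genes of the proteasome pathway by role, filled where called higher. Nfe2l2 at 1.11 and Psmg2 at 0.88 lie furthest right, and no gene was called lower.

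**Figure D5:**
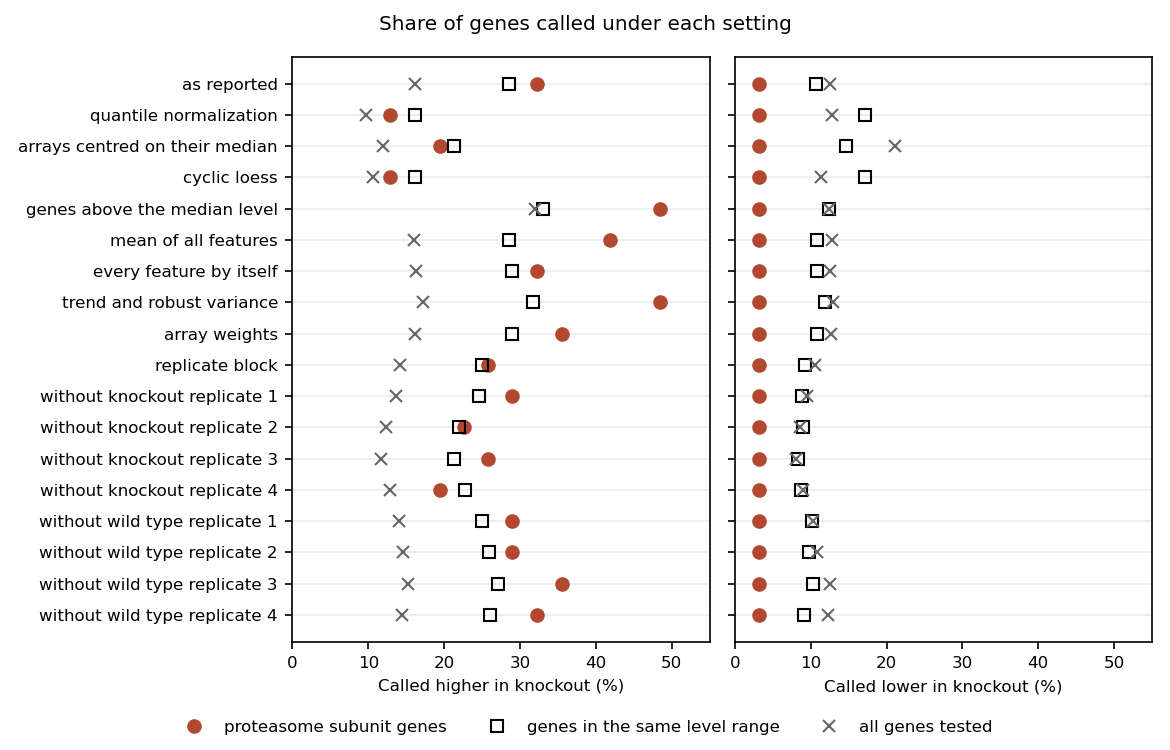
Share of genes called higher (left panel) and lower (right panel) in Sel1L knockout pancreas under each setting, for the 31 proteasome subunit genes (circles), genes of like signal (squares) and all genes tested (crosses). Circles lie below the squares on the left after quantile normalization and cyclic loess (12.9% against 16.2%), after centring, and without knockout replicate 4, and stay at 3.23% on the right.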

How the data were processed

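The deposited values are log2 signals of 35556 features on 8 arrays, which the authors computed by RMA, a multi-array summary of probes, per the submitters' processing notes. The log base follows from RMA and the range of the values, while the RMA version is not given in the sources used here. GEO's platform annotation gave 1 symbol for 21218 features, several for 1881 and none for 12457. Of several features per gene the one with the highest mean was kept, which gave 18820 genes. Identifiers of 21185 features were found in RefSeq (GRCm38.p6), and 0 symbols changed.

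Knockout minus wild type was fitted with limma 3.58.1 in R 4.3.3 (lmFit, eBayes, 6 residual degrees of freedom), with Benjamini-Hochberg adjustment over all genes and no filter on dim genes. Errors of differences are moderated standard errors. No 2 arrays held identical values, and the number of arrays limits the precision. On simulated data with 200 of 18820 genes changed, 44% of changes of 0.5 and 98% of changes of 1 (log2) were recovered. In the real data 28.7% of genes were called, which makes the adjusted threshold less strict. The simulated rates therefore do not give the recovery in these data.

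Named were Sel1l, all members, and the called and other role-bearing genes of the pathway lists. Members and lists were chosen with earlier results of these data known. Alternatives were other scalings (quantile, median centring, cyclic loess), a signal filter, other feature choices, other variance models, array weights, the replicate block and leaving out each array. Sequences of 26 genes came from RefSeq. Some pathway and marker genes had no feature of their own in the tables used and are not analysed here. Figures were drawn with matplotlib 3.10.9.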

Additional observations from a re-analysis of the deposited data

Results flagged for a closer look

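In 12 of 130 combinations of a gene and a group, 1 array stood apart from the other 3 of its group by Dixon's ratio at its 95% critical value, where chance flags about 5% and 5.47% to 5.66% of all genes were flagged per group. Knockout replicate 4 accounted for 6 of the 12. It was high for Psma1 (8.864, the others 8.543 to 8.581), Psma5 (7.836, the others 7.657 to 7.67), Psma7 (8.234, the others 7.947 to 7.996) and Psmb3 (11.27, the others 11.11 to 11.13). It was low for Psmd2 (9.104, the others 9.295 to 9.326) and for Sel1l (11.45, the others 11.66 to 11.7). Wild type replicate 1 was high for Psma3 (8.881, the others 8.75 to 8.77) and low for Psmc3 (7.583, the others 7.798 to 7.828) and Uchl5 (8.038, the others 8.453 to 8.499). The remaining values were knockout replicate 1 for Rad23b (9.499, low), knockout replicate 2 for Zfand5 (7.136, low) and wild type replicate 3 for Nfe2l1 (8.502, low). Without knockout replicate 4, Psma1 was still called higher, and 6 subunit genes were called higher in all, against 10 with it.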

How the results depend on the processing

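Subunit genes called higher numbered 10 as reported, 4 after quantile normalization, 4 after cyclic loess and 6 with array medians set equal, and 6 to 11 when 1 array was left out, with the lowest count without Sel1L knockout replicate 4. The count was 15 with trend and robust variance and 15 among genes above the median signal, where fewer genes are tested. In the deposited values the median over all features was 5.00 to 5.05 in the knockout arrays and 4.94 to 4.99 in the wild type arrays. Centring takes out this offset between the groups. The cause of the drop under the other scalings was not tested. The count called lower was 1 in all 17 settings. Over all genes, 3027 were higher as reported and 1815 after quantile normalization and 1987 after cyclic loess (2204 to 2856 with 1 array left out), and 2379 were lower as reported, 3969 after centring and 1163 among genes above the median signal (1517 to 2371 with 1 array left out, lowest without Sel1L knockout replicate 3). Calls higher made up 56% of calls over all genes as reported, 42.9% after quantile normalization, 36.3% after centring, 48.1% after cyclic loess and 72.2% among genes above the median signal. Of the 11 subunit gene calls, 5 remained after quantile normalization, 5 after cyclic loess, 7 after centring, 7 without Sel1L knockout replicate 4 and 9 without wild type replicate 2. The median difference of the subunit genes stayed positive, at 0.14, 0.13 and 0.18 after quantile normalization, cyclic loess and centring. The median of the genes of like signal moved as well, from 0.13 as reported to -0.0059, -0.0022 and 0.055 in those settings. Sel1l was called lower in all 17 settings. The replicate number is not known to pair arrays: deviations of same-numbered arrays correlated at 0.222, 0.153, -0.273 and -0.0195, and 2 of 8 arrays correlated best with their own number. With the replicate block 8 subunit genes were called higher and 1 lower, and over all genes 2680 higher and 1998 lower. With 4 arrays a group, differences of 0.2 to 0.3 on the log2 scale lay near the limit of what was called.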
